A study of Mus musculus with 15 samples.

Results

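The genes described here are 33 markers of lymphocytes in mouse liver, 17 of T cells, 5 of B cells and 11 of natural killer cells and their cytotoxic granules, listed by gene name. Of these, 31 had at least 1 probe set listed under their own symbol on the array (49 probe sets), out of 18193 genes with such a probe set. No probe set was listed for Lck, a kinase of T cell receptor signalling, and the probe set for Klrb1c, the NK1.1 antigen, was shared with Klrb1b, so neither was analysed here. Livers of 15 male C57BL/6J mice were measured, 1 array per mouse, after 12 weeks of feeding that began at 8 weeks of age. The CL+CX mice (n = 5) received the CL diet with β-cryptoxanthin, a carotenoid, at 0.003% by the treatment text and the methods and at 0.005% by the sample titles. The CL mice (n = 5) received the CL diet alone, in which 60% cocoa butter, sodium cholate at 0.5% and cholesterol at 1.25% were mixed with 38.23% CRF-1 chow. The NC mice (n = 5) received CRF-1 standard chow. The study fed the CL diet as a model of nonalcoholic steatohepatitis, and the comparisons ask whether lymphocyte genes changed with that diet and with β-cryptoxanthin added to it.

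T cells recognise peptides on other cells through a receptor whose signal passes through the CD3 chains, the kinase Zap70 and the adaptor Lat. B cells do the same for free antigen through a receptor that signals by Cd79a and Cd79b. Natural killer cells carry no such rearranged receptor. They read activating and inhibitory ligands through lectin-like receptors such as Klrk1 (NKG2D) and Klrd1 (CD94), and kill with perforin and granzymes, a machinery they share with cytotoxic T cells. The liver holds many resident lymphocytes, natural killer cells prominent among them.

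Each array was scaled to the same 75th percentile, and a signal here is the scaled MAS5 intensity of a probe set, on a linear scale with no fixed zero point for an absent transcript. The array medians after scaling lay between 11.3 and 13.5. A gene was tested when its probe set reached the array median in all 5 mice of at least 1 diet, and 10508 of 18193 genes (57.8%) did. The livers carried the markers of liver tissue at high signal, with summed signals of 7 hepatocyte genes of 39900 to 47500 in CL+CX, 35700 to 55600 in CL and 51600 to 65300 in NC. The difference between the 3′ and 5′ β-actin probe sets, a measure of RNA quality, was larger by 0.25 on the log2 scale in CL+CX than in CL mice (exact permutation test over 252 arrangements, two-sided, p = 0.00794, n = 5 each). Between CL and NC mice it differed by -0.11 (exact permutation p = 0.0952). Its part in the results was not tested beyond the fit with this value as a covariate, which cannot separate it from the diet in CL+CX against CL.

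Most of the lymphocyte markers were too dim to judge. Only 9 of the 31 genes (29%) were tested, 4 of 16 T cell markers, 2 of 5 B cell markers and 3 of 10 natural killer and cytotoxic markers. The tested genes were Cd3g, Lat, Icos, Zap70, Cd79b, Pax5, Klrk1, Klrd1 and Nkg7. Of the other 22, 8 lay below the array median in all 15 mice by the brightest probe set on average, which stands for a gene here. These were Cd247, the zeta chain of the T cell receptor complex, Cd4, the co-receptor of helper T cells, Cd8b1, a chain of the co-receptor of cytotoxic T cells, Ctla4, an inhibitory receptor, Foxp3, the transcription factor of regulatory T cells, Cd79a, a signalling chain of the B cell receptor, Ncr1 (NKp46), an activating receptor of natural killer cells, and Eomes, a T-box transcription factor of natural killer and memory T cells. Cd4 lay between 1.68 and 3.46 in CL+CX, 1.09 and 6.45 in CL and 3.07 and 5.56 in NC mice. Foxp3 lay between 1.03 and 8.05 in CL+CX, 0.784 and 7.13 in CL and 0.655 and 9.94 in NC mice. For both genes the ranges of the diets overlapped. Signals this far below the array median carry little precision, and no call is made for any of the 8. Of their other probe sets, 1 for Cd247 reached the median on 1 array, that of CL mouse 4, at 14.9.

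**Figure D1:**
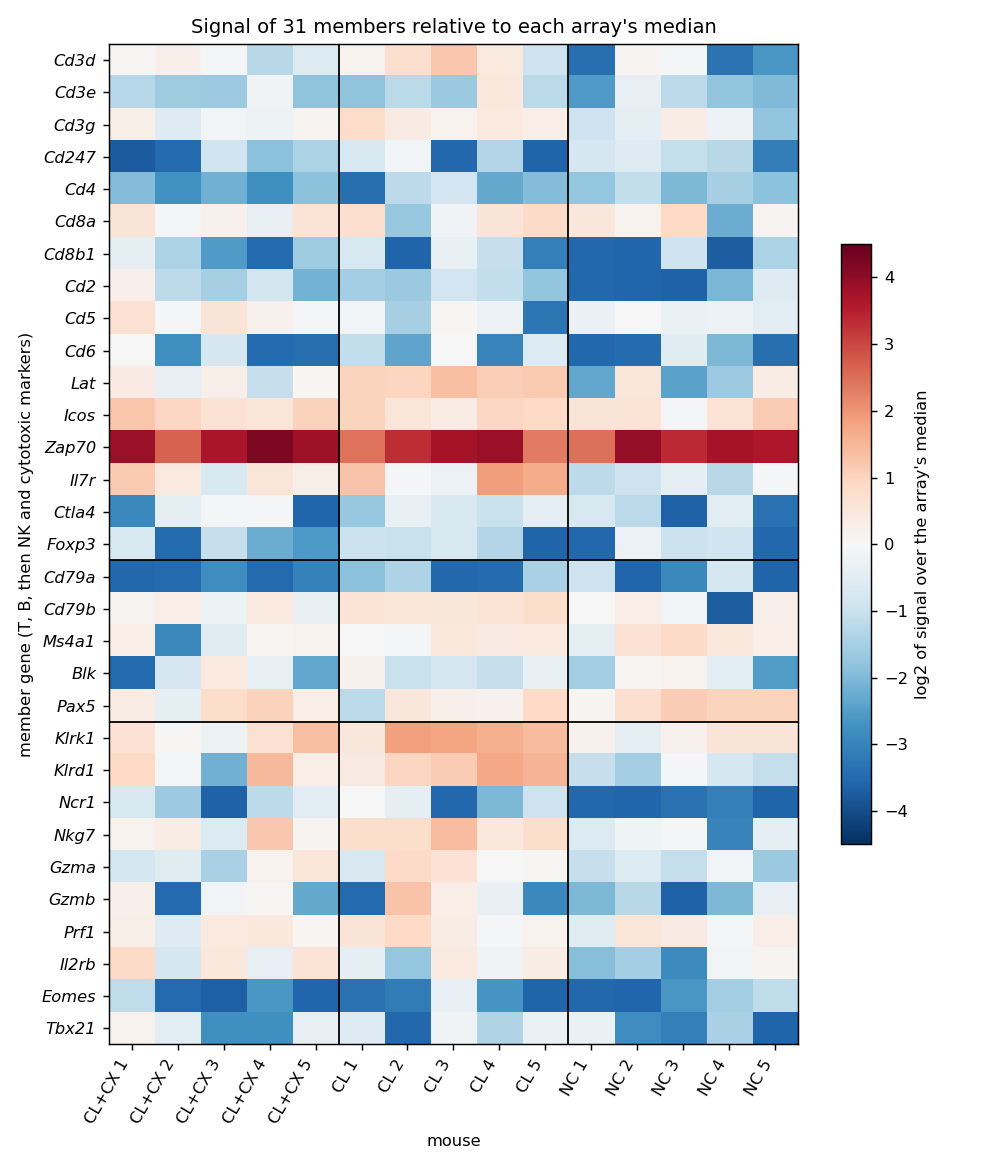
Signal of each of the 31 members (rows) in each of the 15 mice (columns: CL+CX, CL, NC) as log2 of the signal over that array's median, with signals under 1 set to 1. Red cells lie above the array median and blue cells below it. Zap70 was above it in every mouse, and 8 genes, Cd4 and Foxp3 among them, were below it in every mouse by the probe set plotted, the one that stands for the gene.

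The remaining 14 genes passed the array median in some mice but not in all 5 of any diet. They were Cd3d, Cd3e, Cd8a, Cd2, Cd5, Cd6 and Il7r among the T cell markers, Ms4a1 and Blk among the B cell markers, and Gzma, Gzmb, Prf1, Il2rb and Tbx21 among the natural killer and cytotoxic markers. Differences are given for these genes, as for the 8 dimmer ones, with no test past the filter. Of the 9 tested genes, 6 entered the test only through the CL mice (Cd3g, Lat, Cd79b, Klrk1, Klrd1 and Nkg7). Across the array 285 genes did so, and 33.7% of those were called higher in CL than in NC. Such a gene was at or above the array median in all CL mice and below it in at least 1 NC mouse, so a count over these 6 is no support by itself.

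In livers of CL mice, 5 of the 9 tested markers were higher than in NC mice, at an adjusted p under 0.05 with limma, and none was lower. They were Lat and Cd3g of the T cell markers and Klrd1, Nkg7 and Klrk1 of the natural killer and cytotoxic markers. Which cells made their RNA was not tested. Across all genes tested, 7.19% were called higher and 6.79% lower in this comparison. Neither of the B cell markers tested passed. All 5 of the genes called entered the test only through the CL mice, and 33.7% of all such genes were called higher. In bulk tissue a larger number of cells of a type and more RNA of that gene per cell cannot be told apart.

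Lat, the membrane adaptor that Zap70 phosphorylates after T cell receptor engagement, had signals of 22.9, 24.2, 29.7, 28.6 and 27.2 in the CL mice and of 2.31, 17.5, 2.35, 4.22 and 15.5 in the NC mice. All CL mice lay above all NC mice, and the NC mice fell into 3 dim and 2 brighter ones. The difference was 2.20 on the log2 scale (SE 0.52, limma adjusted p = 0.0120), 4.6-fold, and 0.85 to 2.60 over the alternative settings. With 3 NC mice far below the array median, the fold carries little precision. Cd3g, the gamma chain of the CD3 complex, had 20.0, 15.9, 13, 17.8 and 14.9 in the CL mice and 6.13, 8.95, 15.5, 10.8 and 3.57 in the NC mice. The diets overlapped, since NC mouse 3 lay above CL mice 3 and 5. Its difference was 1.01 (SE 0.31, limma adjusted p = 0.0453), close to the threshold, and it lost the call in 17 of 25 alternative settings.

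The other CD3 chains were not tested. Cd3d had 12.8, 20.9, 26.9, 18.1 and 6.36 in the CL mice and 1.11, 13, 12.0, 1.30 and 2.01 in the NC mice, a difference of 2.17 on the log2 scale. The diets overlapped, with 3 CL mice above all NC mice and 3 NC mice near the floor of 1. Cd3e had 3.23 to 18.4 in CL and 1.98 to 9.30 in NC mice (0.47), with CL mouse 4 alone above the array median. The zeta chain Cd247 had 0.636 to 11.5 in CL and 1.42 to 8.07 in NC mice (-0.52), and its 3 other probe sets differed by -0.69, 0.69 and 1.10. The Cd3d, Cd3e and Cd3g genes lie next to each other in the genome, so these 3 are not independent markers by position.

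Il7r, the alpha chain of the interleukin-7 receptor that T cells need to survive, had 27.8, 11.6, 9.75, 48.7 and 38.8 in the CL mice and 5.20, 6.31, 9.22, 5.48 and 11.8 in the NC mice. No NC mouse reached the array median, which 3 CL mice did. Counting the NC mice at their array medians, the mean of these CL mice was at least 1.84-fold that of the NC mice. The bound describes these mice only. The diets overlapped, and this gene did not pass the filter. Its second probe set, with 5.32 to 21.1 in CL and 0.338 to 5.57 in NC mice, was the only probe set of any of these genes that passed the test when no filter was applied (limma adjusted p = 0.0271). All NC mice were below the array median by that probe set and 4 of them under the floor of 1, so no fold is given.

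Zap70, the kinase that binds the phosphorylated CD3 and zeta chains, was the only one of the 31 genes at or above the array median in all 15 mice. Its 5 signals were 62.6, 125, 156, 190 and 60.9 in CL mice and 65.4, 186, 127, 175 and 152 in NC mice. The diets covered the same range, with a difference of -0.31 (SE 0.38, limma adjusted p = 0.645), and its other probe sets, both tested, had differences of -1.02 (adjusted p = 0.157) and -0.89 (adjusted p = 0.124). So all 3 Zap70 probe sets had a negative estimate, none past the test, where Lat and Cd3g, which act beside it in the same pathway, were higher. Over the 15 mice Zap70 had signals of 60.9 to 209, while Lat reached at most 29.7 and Cd3g at most 20. Which cells gave the Zap70 signal was not tested. Icos, a costimulatory receptor of the CD28 family, had 14.7 to 25.1 in CL and 11.6 to 27.4 in NC mice (0.15, SE 0.22, adjusted p = 0.714). Its other probe sets, neither tested, differed by 0.56 and 0.97.

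Co-receptors and adhesion molecules of T cells had no tested probe set. Cd8a, the co-receptor chain of cytotoxic T cells, had 3.82 to 22.1 in CL and 2.76 to 22.9 in NC mice (0.16), and its 4 other probe sets differed by 0.36 to 1.39. Cd8b1 differed by 0.87, with 1.02 to 9.30 in CL and 0.314 to 6.55 in NC mice, and Cd4 by -0.31. The adhesion receptor Cd2 had 3.51 to 6.38 in CL and 0.728 to 8.22 in NC mice, a difference of 1.27 between groups that were both below the array median. Cd5 and Cd6 are related surface receptors that temper T cell receptor signals. Cd5 had 1.27 to 12.0 in CL and 8.64 to 12.2 in NC mice (-0.77), and Cd6 had 1.68 to 11.9 in CL and 0.518 to 8.53 in NC mice (1.17). Of the regulatory genes, Ctla4 had 3.50 to 9.80 in CL and 0.399 to 9.28 in NC mice (1.04), and Foxp3 differed by 0.30. The diets overlapped for every one of these 8 co-receptor, adhesion and regulatory genes.

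The natural killer markers bright enough to test, 3 in all, were higher in CL than in NC mice. Klrd1 (CD94), which pairs with NKG2 chains to bind nonclassical MHC molecules, had 15.1, 24.0, 26, 44.1 and 35.3 in the CL mice and 5.73, 4.17, 11.9, 7.43 and 5.86 in the NC mice. All CL mice lay above all NC mice, and no NC mouse reached the array median. The difference was 2.04 (SE 0.51, limma adjusted p = 0.0163), and counting the NC mice at their array medians the level in CL was at least 2.21-fold higher. Nkg7, a granule protein of cytotoxic lymphocytes, had 19.5, 21.7, 31, 18.4 and 20.9 in the CL mice and 7.55, 10.5, 11.8, 1.62 and 9.33 in the NC mice. Here too the diets did not overlap and no NC mouse reached the array median. The difference was 1.70 (SE 0.44, limma adjusted p = 0.0197), at least 1.78-fold. Klrk1 (NKG2D), an activating receptor for stress-induced ligands, had 16.1, 44.7, 40.1, 41.3 and 32.7 in the CL mice and 13.3, 9.14, 14.1, 19.3 and 18.3 in the NC mice. CL mouse 1 lay among the NC mice and the other 4 CL mice above all of them. The difference was 1.20 (SE 0.31, limma adjusted p = 0.0214), 2.3-fold. Klrd1 and Klrk1 lie near each other in the natural killer gene complex.

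The killing machinery itself was dim. Gzma, a granzyme, had 6.87, 22.5, 18.5, 13.4 and 12.6 in the CL mice and 5.70, 7.82, 5.94, 11.9 and 3.91 in the NC mice. In CL mice 4 of 5 arrays reached the median, in NC mice none, and the diets overlapped. Counting the NC mice at their array medians, the mean of these CL mice was at least 1.11-fold that of the NC mice, with no test. Gzmb, the other granzyme listed, spread from 0.715 to 30.1 within the CL mice alone, against 0.774 to 9.57 in NC mice (0.81). Prf1, which encodes perforin, had 12.7 to 22.9 in CL and 7.98 to 17.4 in NC mice (0.26, but -0.27 by its other probe set). The receptor Ncr1 had 0.766 to 11.3 in CL and 0.321 to 1.53 in NC mice, a difference of 2.04 between signals that were all below the array median. Il2rb, the beta chain of the receptors for interleukin-2 and interleukin-15, had 3.67 to 15.7 in CL and 1.72 to 13.3 in NC mice (0.93, and 1.47 by its other probe set). Of the T-box factors that drive natural killer cell maturation, Tbx21 differed by 1.06 and Eomes by -0.15, both below the array median in all mice of both diets.

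None of the B cell markers passed the test, and their estimates had both signs. Cd79b, a signalling chain of the B cell receptor, had 17.5, 18.3, 16.8, 20.2 and 20.7 in the CL mice and 11.5, 14.8, 11.3, 0.703 and 14.4 in the NC mice. All CL mice lay above all NC mice, but NC mouse 4 was far below the others, and the difference of 1.27 (SE 0.55) did not pass (limma adjusted p = 0.148). Without NC mouse 4 the difference was 0.53 and the adjusted p 0.0391. Its partner Cd79a had 0.349 to 4.69 in CL and 0.475 to 7.55 in NC mice (0.01). Ms4a1, which encodes the B cell surface protein CD20, had 11.2 to 17.0 in CL and 8.79 to 22.7 in NC mice (-0.15). Its other probe set, below the array median in every mouse, differed by 0.60. Blk, a Src family kinase of B cells, had 6.18 to 13 in CL and 2.17 to 14.0 in NC mice (0.27). Pax5, the transcription factor that holds B cell identity, entered the test through the NC mice alone, with 4.87, 17.6, 13.7, 15 and 22.5 in CL and 12.6, 20.4, 27.3, 26.2 and 24.5 in NC mice (-0.70, SE 0.37, adjusted p = 0.246). The diets overlapped for all of these except Cd79b.

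Over the tested genes, 4 of 9 had CL mice that all lay above all NC mice (Lat, Cd79b, Klrd1 and Nkg7) and none the reverse, beside 6.11% and 5.61% of all genes tested. Since all 4 of them entered the test through the CL mice, the whole list is described as well. Its members were chosen with earlier results of these data known, so its counts are no support by themselves. Among all 31 genes, filtered or not, 24 had a positive difference, with a median of 0.87, beside 43.8% of all genes on the array and a median of -0.06. Of the 22 members not tested 17 did (median 0.64), beside 49.2% of all genes not tested (median -0.01). The natural killer and cytotoxic markers had a positive difference in 9 of 10 (median 1.06), the T cell markers in 12 of 16 (median 0.67) and the B cell markers in 3 of 5 (median 0.01). The difference between these groups of markers was not tested. Genes were then set at their bound where a diet lay below the array median. Those dim in both diets, and those with a bound under 1-fold (Cd3e, Cd6 and Gzmb), were left out. The median was 0.88 for 6 natural killer and cytotoxic, 0.52 for 8 T cell and 0.06 for 4 B cell markers. Leaving out genes with a bound under 1-fold raises these medians. Fitted with no filter, 11 of the 31 had an unadjusted p under 0.05 and were higher in CL, beside 8.44% of all genes, and none was lower, beside 9.7%. They were 5 T cell markers (Cd3d, Cd3g, Cd2, Lat and Il7r), 5 natural killer and cytotoxic markers (Klrk1, Klrd1, Ncr1, Nkg7 and Gzma) and Cd79b. None of the 31 genes, each read from its brightest probe set, passed the adjusted test in that fit, whose adjusted p for the 5 called genes was 0.052 to 0.144.

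**Figure D2:**
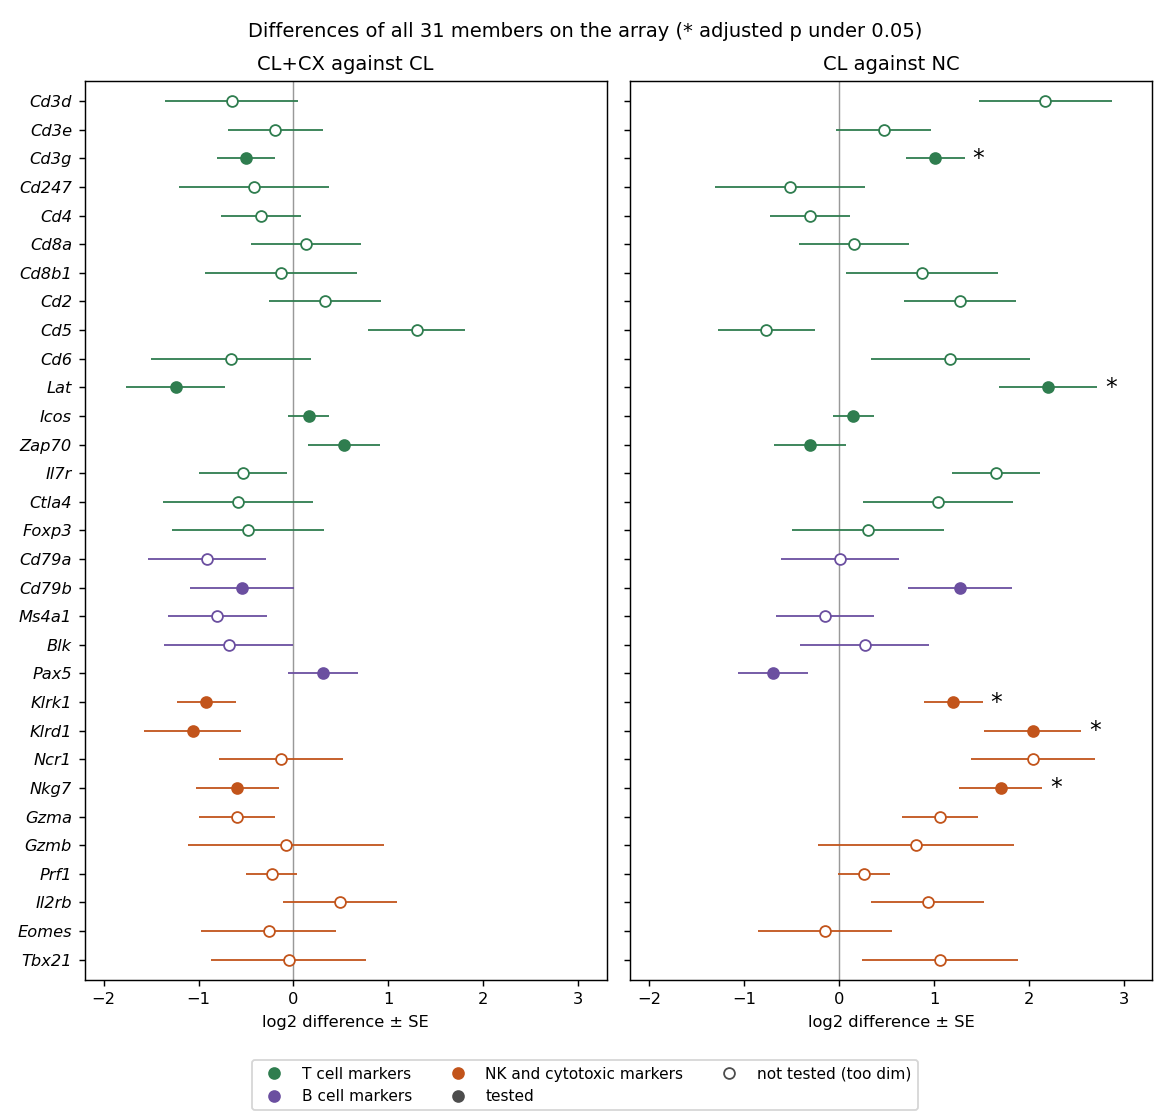
Log2 difference (± SE of the limma fit, horizontal axis) of each of the 31 members in CL+CX against CL (left) and CL against NC (right), with filled points for the 9 tested genes and open points for the 22 not tested, whose SE comes from the fit with no filter. Stars mark an adjusted p under 0.05. In CL against NC 24 of 31 estimates lie above 0 and 5 carry a star, and in CL+CX against CL 24 of 31 lie below 0 and none carries a star.

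The promoters of 4 of the 5 genes called higher in CL mice are in the RefSeq table for build GRCm38.p6, and they are shown because these genes carry the comparison. Klrd1 has no entry there. Each window runs from 250 bases before to 50 bases after the transcription start, 5′ to 3′ on the strand of the gene. Capitals mark matches on either strand to TGTGGT, the core bound by RUNX factors, AGGAAG, bound by ETS factors, AGGTGT, bound by T-box factors, and CAGCTG, an E-box. The windows are chr7:126369519-126369818 (minus strand) for Lat, chr9:44980382-44980681 (minus strand) for Cd3g, chr7:43436888-43437187 (plus strand) for Nkg7 and chr6:129623815-129624114 (minus strand) for Klrk1.
Lat: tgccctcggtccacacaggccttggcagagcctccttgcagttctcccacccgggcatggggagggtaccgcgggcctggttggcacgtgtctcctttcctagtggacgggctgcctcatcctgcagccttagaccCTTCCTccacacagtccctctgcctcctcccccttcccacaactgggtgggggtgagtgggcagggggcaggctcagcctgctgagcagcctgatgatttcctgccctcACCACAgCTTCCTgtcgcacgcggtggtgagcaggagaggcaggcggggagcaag
Cd3g: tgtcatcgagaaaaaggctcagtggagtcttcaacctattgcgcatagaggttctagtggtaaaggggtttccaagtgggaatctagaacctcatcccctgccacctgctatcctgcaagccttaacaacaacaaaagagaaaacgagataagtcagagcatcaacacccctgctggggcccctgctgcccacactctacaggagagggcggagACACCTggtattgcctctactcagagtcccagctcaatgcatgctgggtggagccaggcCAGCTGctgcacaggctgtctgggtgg
Nkg7: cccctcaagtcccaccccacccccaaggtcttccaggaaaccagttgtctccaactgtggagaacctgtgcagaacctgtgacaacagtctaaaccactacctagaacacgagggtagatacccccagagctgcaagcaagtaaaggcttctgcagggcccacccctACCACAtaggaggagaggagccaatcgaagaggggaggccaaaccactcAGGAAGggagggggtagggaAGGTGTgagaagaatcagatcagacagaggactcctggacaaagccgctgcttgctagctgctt
Klrk1: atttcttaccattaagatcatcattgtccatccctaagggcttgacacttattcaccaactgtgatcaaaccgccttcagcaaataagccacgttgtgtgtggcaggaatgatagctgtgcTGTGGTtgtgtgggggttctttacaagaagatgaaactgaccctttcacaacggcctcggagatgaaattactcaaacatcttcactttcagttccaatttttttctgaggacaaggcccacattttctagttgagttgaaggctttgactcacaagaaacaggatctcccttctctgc

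The Lat window held 1 match to the RUNX core and 2 to the ETS core, the Nkg7 window 1 match each to the RUNX, ETS and T-box letters, the Klrk1 window 1 to the RUNX core, and the Cd3g window 1 each to the T-box and E-box letters. The table held 28 promoters of 23 of the member genes. Of these 28, 12 held the RUNX core, beside 16.8% of all 32851 promoters, and 17 held the ETS core, beside 35.4%. The T-box letters were in 8, beside 13.7%, and the E-box in 5, beside 16.3%. A match is a description of the letters and not a site shown to be bound.

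β-Cryptoxanthin added to the CL diet gave lower estimates for most of these genes, and none passed the test. With limma, 0 of the 9 tested members were called in CL+CX against CL at an adjusted p under 0.05, beside 1.48% of all genes tested called higher and 1.79% called lower. At an unadjusted p under 0.05, Lat and Klrk1 were lower and no tested gene was higher. The CL mice are the same as in the comparison with NC, so the differences of these comparisons are not independent of each other.

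Lat had 17.2, 8.88, 16.1, 5.57 and 12.7 in the CL+CX mice, all below the lowest CL mouse at 22.9. The difference from CL was -1.24 (SE 0.52, limma adjusted p = 0.196), and with the β-actin difference as a covariate its sign turned, to 0.25 (adjusted p = 0.973). In that fit the others kept their signs except Pax5, which turned to -0.24. Klrd1 had -1.76, Klrk1 -0.95, Nkg7 -0.91, Cd79b -0.88 and Cd3g -0.34. Icos had 0.62 and Zap70 1.11, and no member was called. The covariate was 0.95 to 1.17 in the CL+CX mice and 0.70 to 0.95 in the CL mice. Since these ranges only met at 0.95, this fit cannot separate the covariate from the diet. Klrk1 had 21.0, 11.9, 11.5, 18.1 and 30.6 in the CL+CX mice, against 16.1, 44.7, 40.1, 41.3 and 32.7 in the CL mice. All CL+CX mice lay below 4 of the 5 CL mice, and the difference was -0.92 (SE 0.31, limma adjusted p = 0.117). Cd79b, with 14.5, 14.0, 11.5, 15.2 and 9.57 in the CL+CX mice, was again without overlap, below all CL mice. Its difference of -0.54 (SE 0.55) did not pass (limma adjusted p = 0.633). That SE is pooled over the 3 diets, with NC mouse 4 at 0.703 included. The SD on the log2 scale was 0.28 in CL+CX, 0.131 in CL and 1.66 in NC mice. Over the alternatives the adjusted p was 0.0589 to 0.941, so the gene passed in none. Thus 2 of 9 genes had all CL+CX mice below all CL mice and none had them above, beside 2.28% and 2.8% of all genes tested. Both, Lat and Cd79b, entered the test only through the CL mice, so nothing is read from this count.

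Of the other genes called higher in CL than in NC, Klrd1 alone had a wide CL+CX group. Its SD on the log2 scale was 1.33 there, against 0.553 for Nkg7 and 0.419 for Cd3g. Klrd1 had 25, 10.7, 2.99, 31.2 and 14.8 in the CL+CX mice (-1.06 against CL, SE 0.51, adjusted p = 0.259). CL+CX mice 1 and 4 lay within the CL range and mouse 3 lay below every NC mouse. Nkg7 had 14.9, 14.3, 8.88, 25.9 and 13.2 (-0.59, SE 0.44, adjusted p = 0.49), and Cd3g 16, 7.61, 12.4, 9.58 and 13.2 (-0.50, SE 0.31, adjusted p = 0.403). For these 3 genes the CL+CX and CL mice overlapped.

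**Figure D3:**
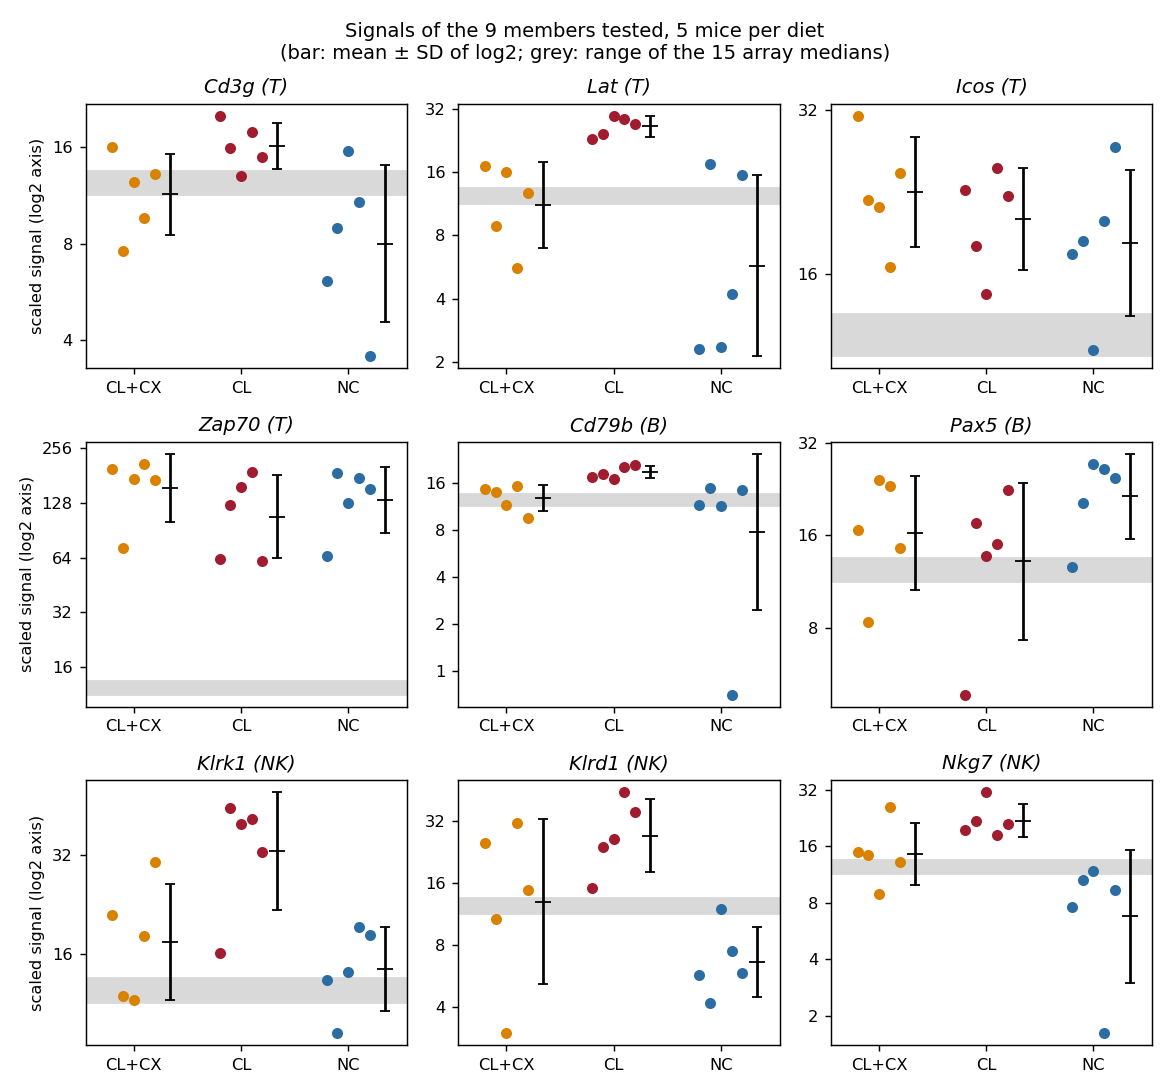
Scaled signal (log2 axis) of the 9 tested members in each mouse of the CL+CX, CL and NC diets, with the mean and SD of the log2 signals beside the points and the range of the 15 array medians in grey. For Lat and Cd79b all CL mice lie above all CL+CX and all NC mice. For Zap70 and Icos the diets overlap.

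Some T cell genes and the B cell gene Pax5 ran the other way by the probe set that stands for the gene. Cd5 had 21.3, 10.9, 20.1, 12.8 and 11.6 in the CL+CX mice, against 10.4, 4.37, 12.0, 10.9 and 1.27 in the CL mice. It was not tested, and its difference of 1.30 was the highest among the 31 genes in this comparison. The diets overlapped, and 3 CL+CX mice and 1 CL mouse reached the array median. Zap70 had 196, 72.5, 173, 209 and 170 in the CL+CX mice (0.53, SE 0.38, adjusted p = 0.479), with mouse 2 far below the rest. The other Zap70 probe sets differed by 0.68 and 0.58. Icos had 16.5 to 31.3 in the CL+CX mice (0.16, SE 0.22, adjusted p = 0.743), but its other probe sets differed by -0.01 and -0.88. Pax5 had 8.39 to 24.2 (0.31, SE 0.37, adjusted p = 0.704), but -0.08 by its other probe set.

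Among the untested genes the CL+CX mice overlapped the CL mice in every case. Cd3d had 4.71 to 13.9 (-0.65), Cd3e 3.44 to 10.1 (-0.19) and Cd247 0.274 to 7.22 (-0.42). Il7r had 8.45 to 29.8 in CL+CX mice, a difference of -0.53 from CL. Cd8a had 8.66 to 20.1 (0.13), Cd8b1 0.835 to 9.87 (-0.13), Cd2 2.73 to 15.6 (0.33) and Cd6 0.722 to 13 (-0.66). The 4 other Cd8a probe sets, at -0.85 to -0.34, had the opposite sign to the brightest one. Cd4 had 1.68 to 3.46 (-0.34), Ctla4 0.478 to 12.7 (-0.58) and Foxp3 1.03 to 8.05 (-0.48). Of the B cell genes, Ms4a1 had 1.54 to 16.3 (-0.80), Blk 1.22 to 18.5 (-0.68) and Cd79a 0.816 to 1.95 (-0.91). Of the cytotoxic genes, Gzma had 4.86 to 17.3 (-0.59), Gzmb 0.927 to 15.7 (-0.08), Prf1 7.71 to 18.3 (-0.23) and Il2rb 6.51 to 23.9 (0.49, but -1.24 by its other probe set). Ncr1 (1.08 to 8.73), Tbx21 (1.65 to 14.9) and Eomes (0.412 to 6.00) had differences of -0.13, -0.05 and -0.26.

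Over all 31 genes, 24 had a negative and 7 a positive difference in CL+CX against CL, with a median of -0.42. Across all genes on the array 50.7% had a positive difference, and the median was 0.01. The same CL mice gave the 24 positive differences against NC, so these signs are no separate support. The median was -0.38 for the T cell, -0.68 for the B cell and -0.24 for the natural killer and cytotoxic markers. Genes dim in both diets, and those with a bound under 1-fold (Cd3e, Cd2, Cd6 and Tbx21), were then left out, with others at their bound. The median was -0.19 for 8 T cell, -0.61 for 4 B cell and -0.59 for 7 natural killer and cytotoxic markers. With an offset of 16 it was -0.08, -0.11 and -0.10 in the same order. Fitted with no filter, 2 of the 31 were lower at an unadjusted p under 0.05, beside 5.93% of all genes, and 1, Cd5, was higher, beside 5.79%.

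Set against NC mice, CL+CX mice had no member past the test either (0 of 9, limma, beside 5.13% of all genes tested called higher and 4.89% called lower), and 1, Nkg7, at an unadjusted p under 0.05. Nkg7 differed by 1.10 (SE 0.44, adjusted p = 0.116), at least 1.18-fold, since no NC mouse reached the array median. Klrd1 differed by 0.98 (SE 0.51, adjusted p = 0.23), at least 1.06-fold, and without CL+CX mouse 3 it passed, at 1.51 (adjusted p = 0.024). These bounds make no allowance for the spread between mice. Lat differed by 0.96 (SE 0.52, adjusted p = 0.249), Cd3g by 0.51 (SE 0.31, adjusted p = 0.315) and Klrk1 by 0.28 (SE 0.31, adjusted p = 0.605). All 5 estimates lay above 0 and below those of CL against NC, and none of the 5 genes passed the test of CL+CX against either diet. The 5 entered the test only through the CL mice and were picked as higher there. That choice favours this order by itself, so nothing is read from it. With the β-actin covariate the order was the other way for Lat, at 1.77 in CL+CX and 1.52 in CL against NC. Of the other tested genes, Cd79b differed by 0.73 (adjusted p = 0.421), Icos by 0.31 (0.394), Zap70 by 0.21 (0.76) and Pax5 by -0.40 (0.533). The mean level of Il7r, which was not tested, was at least 1.27-fold that in NC, and the diets overlapped. Over all 31 genes the median was 0.47, beside -0.04 for all genes, with 0.48 for T cell, -0.42 for B cell and 0.85 for natural killer and cytotoxic markers. Genes at their bound gave 0.43 for 8 T cell, -0.41 for 4 B cell and 0.24 for 5 natural killer and cytotoxic markers. Those dim in both diets or with a bound under 1-fold were left out. With no filter 6 of the 31 were higher at an unadjusted p under 0.05, beside 7.71% of all genes, and none was lower, beside 8.6%.

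The mice of a diet differed in how many of these genes were bright. Of the 31, the number at or above the array median was 19, 7, 9, 13 and 14 in the CL+CX mice, 13, 13, 17, 15 and 15 in the CL mice and 5, 11, 8, 5 and 10 in the NC mice. All CL mice lay above all NC mice, and the CL+CX mice overlapped both, while the share of all genes at or above the array median was 60.7% to 63.3% on every array. By group of markers, the natural killer and cytotoxic genes numbered 2 to 7 in CL+CX, 4 to 7 in CL and 1 to 3 in NC mice, and the T cell genes 4 to 9 in CL+CX, 5 to 8 in CL and 2 to 6 in NC mice. The B cell genes numbered 1 to 3 in CL+CX, 2 to 3 in CL and 1 to 4 in NC mice. CL+CX mouse 1 had the highest signal of its diet in 17 of 31 genes and in 12 of the 16 T cell genes, and CL+CX mouse 2 in 0. Without CL+CX mouse 1, the median in CL+CX against CL was -0.35 for T cell, -0.59 for B cell and -0.49 for natural killer and cytotoxic markers. Without CL+CX mouse 2 it was -0.15 for T cell, -0.58 for B cell and -0.14 for natural killer and cytotoxic markers.

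**Figure D4:**
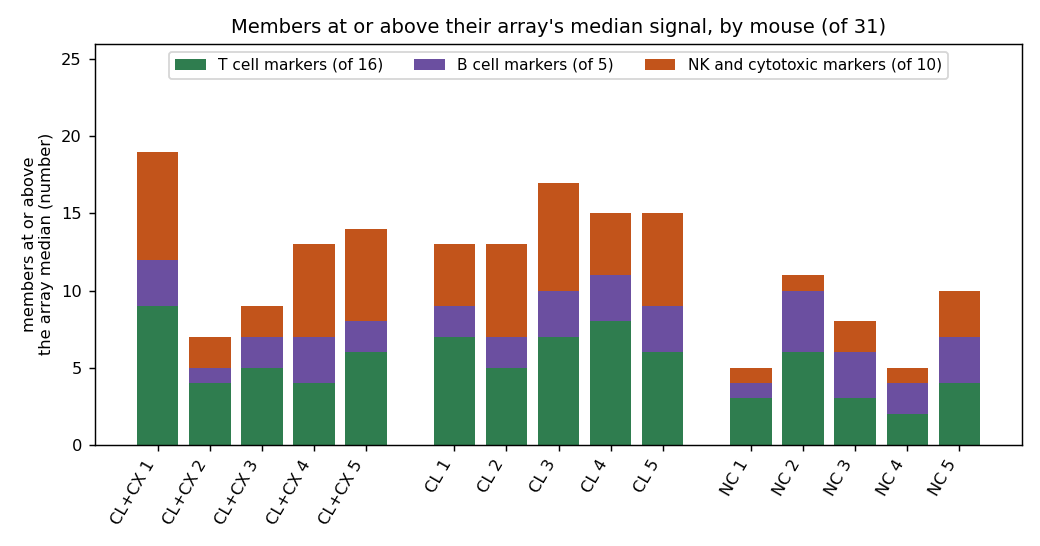
Number of the 31 members at or above their array's median signal in each mouse (stacked bars: T cell, B cell, natural killer and cytotoxic markers), for the CL+CX, CL and NC diets. The CL mice reach 13 to 17 and the NC mice 5 to 11, and CL+CX mouse 1 with 19 stands above CL+CX mouse 2 with 7.

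Other genes of the same cell types, outside the 33, were also often too dim to test. Their median difference in CL against NC, tested or not, was 0.20 for T cell, 0.45 for B cell and 0.42 for natural killer and cytotoxic genes. Of 28 further T cell genes on the array 4 were tested, and 2 were higher in CL than in NC, Ltb, which encodes lymphotoxin beta (1.63, SE 0.34, adjusted p = 0.00586), and Themis, a T cell selection factor (1.19, SE 0.26, adjusted p = 0.00784). Themis was also higher in CL+CX than in NC mice (1.18, adjusted p = 0.0115) and differed by -0.02 between CL+CX and CL mice. Of 23 further B cell genes 11 were tested, with 4 higher and 1 lower in CL than in NC. The largest of the 4 were Btk (1.77), Blnk (1.67) and Cd72 (1.60), of which Btk and Blnk also act in myeloid cells, and Bank1 was the other (0.62). The lower one was Sdc1 (-0.81), a plasma cell marker that hepatocytes also make. In CL+CX against CL, Cd72 (-1.39, adjusted p = 0.0130) and Bank1 (-0.84, adjusted p = 0.0303) were lower. Of 23 further natural killer and cytotoxic genes 3 were tested, and Serpinb9, an inhibitor of granzyme B (0.98), and the related serpin Serpinb6b (1.11) were higher in CL than in NC. Nfil3, a transcription factor needed for natural killer cells but also rhythmic in liver, differed by -1.46 between CL+CX and CL mice (adjusted p = 0.00780). The adjusted p values are from the same limma fit.

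Genes of leukocytes in general and most of those of macrophages were higher in CL than in NC in the same bulk tissue. All 8 pan-leukocyte genes were higher in CL than in NC (Ptprc, which encodes CD45, by 1.87), and their summed signal was 407 to 1020 in CL+CX, 907 to 1620 in CL and 238 to 360 in NC mice. In CL+CX against CL none of them was called, with a median of -0.71 and 6 at an unadjusted p under 0.05. Against NC, 5 were higher in CL+CX mice. Of 15 macrophage genes on the array, 14 were tested, 13 were higher in CL than in NC and 8 were lower in CL+CX than in CL. Their summed signal was 2120 to 4540 in CL+CX, 6210 to 8110 in CL and 1030 to 2430 in NC mice. The natural killer receptors and Lat were thus higher in livers in which the myeloid markers were higher as well, and how far either accounts for the other was not tested. Neutrophil genes (6 on the array, 3 tested) had none past the test in any comparison, nor had dendritic cell genes (7, of which 2 were tested). Of 8 sinusoidal endothelial genes, all tested, 2 were lower in CL+CX than in CL, Oit3 (-0.97, adjusted p = 0.0282) and Clec4g (-0.83, adjusted p = 0.0349), with a median of -0.85, and none passed in CL against NC. Of 7 hepatocyte genes, all tested, 3 were lower in CL than in NC, Tat (-1.07), Hnf4a (-0.56) and Apob (-0.42), with a median of -0.40. Of 7 erythroid and platelet genes 3 were tested, and Pf4, a platelet chemokine, was higher in CL than in NC (0.57). The part of these shifts in the values of the lymphocyte genes was not tested.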

How the data were processed

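RNA of 15 livers was hybridised to Affymetrix GeneChip mouse arrays. The authors deposited linear MAS5 intensity values, which hold neither detection calls nor a scaling across arrays. For this report the 75th percentile of every array was set to 54.1, and log2 was computed with a floor of 1 (11.3% of values lay under it). Array controls were left out, and 20342 probe sets at or above the array median in all 5 mice of at least 1 diet were tested. The probe set with the highest mean stands for a gene. All 3 diets entered 1 linear model (limma 3.58.1, R 4.3.3), with Benjamini-Hochberg adjustment over all probe sets tested and a threshold of 0.05, and the fit was tested on simulated data. No depth applies to arrays, and 5 mice per diet limit the precision. A bound ("at least") counts each dim mouse at its array median. It compares means of log2 signals and makes no allowance for the spread between mice. All 33 members are named, with up to 4 genes of each other list by size of change among those past the test. The members, lists and rules were chosen with earlier results of these data known. Replicate numbers did not pair the mice: deviations of same-numbered mice correlated at -0.132 to 0.135 and above 0.1 in 1 of 15 pairs. Alternatives were another filter, scaling, offset, test, prior, block, covariate and choice of probe set, and each mouse left out. Figures were drawn with matplotlib 3.10.9.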

Additional observations from a re-analysis of the deposited data

Results flagged for a closer look

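Of 27 groups of 5 mice (the 9 tested genes in each diet), 3 held 1 mouse far from the others by Dixon's gap ratio, whose critical value for 5 samples is 0.71. The ratio was taken on log2 signals with the floor of 1, and ratios of the linear signals printed here would differ. Chance flags about 1 in 20 such groups. CL+CX mouse 2 was the lowest of its diet for Zap70, at a signal of 72.5 and a ratio of 0.805. NC mouse 4 was the lowest of its diet for Cd79b, at 0.703 and a ratio of 0.899, and for Nkg7, at 1.62 and a ratio of 0.776. Without NC mouse 4, Cd79b passed the test in CL against NC (0.53, limma adjusted p = 0.0391) and Nkg7 kept its call (1.18, adjusted p = 0.00921).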

How the results depend on the processing

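The 5 members called higher in CL than in NC stayed called with the mean of a gene's probe sets, an offset of 16, quantile normalization and unscaled signals. With no filter 0 were called (11 at an unadjusted p under 0.05), with the stricter filter, which left Zap70 as the one member tested, 0, with the methods' test 1 (Klrd1) and with the β-actin covariate 2 (Klrd1 and Nkg7). Of the T cell markers 2 were called, with no filter, the stricter filter, the methods' test or the covariate 0, and with the trend and robust prior, the fit of only the 2 diets compared or the replicate block 1 (Lat). The samples share only a number, and the replicate block left 4 of the 5 calls. Of the 3 natural killer genes, 0 were called with no filter or the stricter filter and 1 with the methods' test. With each mouse left out, the count was 3 (without CL mouse 4 or NC mouse 2, Lat, Klrd1 and Nkg7) to 6 (without NC mouse 4), for T cell markers 1 (without CL mouse 1, 2, 3 or 4, CL+CX mouse 4 or 5, or NC mouse 1, 2 or 5) to 2, for B cell markers 0 to 1 and for natural killer genes 2 to 4 (Gzma entered without CL mouse 1). Without CL mouse 5 Cd3d, and without CL+CX mouse 3 Il7r, entered and passed in place of Cd3g. In CL+CX against CL, Lat was the 1 call with an offset of 16 (adjusted p = 0.0427, over all alternatives 0.0427 to 0.973, where the difference of -1.24 turned to 0.25 with the β-actin covariate), and in CL+CX against NC, Klrd1 was the 1 call without CL+CX mouse 3 (0.024, over all alternatives 0.024 to 0.608), so those counts ran from 0 to 1. The median in CL against NC with an offset of 16 was 0.15 for T cell and 0.36 for natural killer markers, and with unscaled signals, which move the median of all genes to 0.24, 1.37 for natural killer markers. With each mouse left out it was 0.44 (without CL mouse 4) to 0.89 (without CL mouse 5) for T cell markers, -0.20 to 0.38 for B cell markers (0.32 without CL mouse 3, 0.38 without NC mouse 4) and 0.88 to 1.38 for natural killer markers. In CL+CX against CL the median of B cell markers was -0.11 with an offset of 16. The cause of these changes was not tested. Most members lie near or under the array median, where log2 differences depend on the floor.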
